A study of Mus musculus with 24 samples.

Results

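The TRIM family is described here by the protein-coding genes of the counts table whose symbol is Trim followed by a number and at most 1 letter, which gave 68 members among 55434 genes (21920 of them protein-coding). RNA was sequenced from mouse brain cells selected for CD11b with magnetic beads, in 24 libraries of 8 groups with 3 libraries each. All 6 neonatal groups came from MRL/lpr mice, whose Fas gene carries the lpr mutation and which develop a lupus-like disease. Their cells were cultured for 48 h and then either left unstimulated or given a cytokine for 6 h: TNFa (tumour necrosis factor), the type I interferon IFNa, the type II interferon IFNg, the interleukin IL-6, or a mixture of all 4. The doses are not given in the labels. The other groups were uncultured, unstimulated cells of 16-week-old MRL/lpr mice and of 16-week-old MRL/MpJ mice, the parent strain without the mutation. The series is about the kinase gene Ikbke and neuropsychiatric lupus. Replicates are not said to come from separate animals or cultures, so p-values measure only the spread between these libraries.

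TRIM proteins share a tripartite motif of a RING domain, 1 or more B-boxes and a coiled coil, and most act as ubiquitin ligases. Their last domain decides what they bind, and in many antiviral members it is a SPRY domain. Several members switch nucleic acid sensing on or off, for example TRIM25 at the RNA sensor RIG-I and TRIM56 at the DNA sensing adaptor STING. TRIM21 binds antibody-coated virus inside the cell and is the lupus autoantigen Ro52, while TRIM28 and its relatives silence genes and endogenous retroviruses in chromatin. Genes switched on by type I interferon such as IFNa often carry the interferon-stimulated response element (ISRE) near their start. Genes switched on by IFNg often carry the gamma-activated site (GAS).

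The 68 members were sorted by known role into 10 antiviral SPRY genes related to Trim5 and Trim30, 22 ligases and adaptors of nucleic acid sensing and cytokine signalling, 4 chromatin corepressors of the TIF1 kind, 8 neuronal or microtubule-associated genes, 4 muscle genes and 20 others. All 10 antiviral SPRY genes lie in 1 stretch of chromosome 7 (mm10, GENCODE M21, chr7:104218793-104507849), from Trim6 to Trim30d. The promoter windows of this stretch and of related members were searched for the elements named above, so that matches can be set beside the members' values. Windows of RefSeq (build GRCm38.p6), from 250 bases before to 50 after a start site, were at hand for 53 members. Both strands were searched for the ISRE core (GAAA, any 2 bases, GAAA, or TTTC, any 2 bases, TTTC when read on the other strand) and for the GAS core (TTC, any 3 bases, GAA), and overlapping matches were allowed. The stretches holding an ISRE core follow, 5′ to 3′ on the strand of the gene, with the matched bases in capitals.

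Trim12c, chr7:104353359-104353388, minus strand: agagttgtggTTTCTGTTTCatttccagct
Trim12a, chr7:104315466-104315495, minus strand: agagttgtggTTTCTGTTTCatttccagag
Trim5, chr7:104288136-104288165, minus strand: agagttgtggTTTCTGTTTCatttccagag
Trim30a, first window, chr7:104446104-104446133, minus strand: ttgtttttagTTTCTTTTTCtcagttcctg
Trim30a, other window, chr7:104465210-104465239, minus strand: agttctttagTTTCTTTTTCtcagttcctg
Trim30d, chr7:104507871-104507900, minus strand: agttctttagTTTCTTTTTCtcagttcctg
Trim34a, chr7:104244457-104244486, plus strand: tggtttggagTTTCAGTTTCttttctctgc
Trim21, chr7:102565447-102565476, minus strand: ctgagagGAAACTGAAAGTGAAAtttggac
Trim26, chr17:36836979-36837008, plus strand: cttccgaTTTCACTTTCCTTTTCtcgggcc
Trim2, chr3:84212791-84212820, minus strand: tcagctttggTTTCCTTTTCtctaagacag

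Trim5 and Trim12a held the same 30 bases, as did Trim30d and 1 of the Trim30a windows, so these stretches are copies and not separate cases. Trim21 and Trim26 each held 2 overlapping matches. An ISRE core was found in 9 of the 53 members (17%), against 3.99% of the 27025 genes of the table, and in 10 of 67 member windows (14.9%), against 3.44% of all 32851 windows of that length. These counts include the copies, and the stretch of Trim12c is nearly that of Trim5 and Trim12a, so they exceed the number of separate cases. A GAS core was found in 6 members (11.3%), against 9.55% of all genes, and in 7 of 67 member windows (10.4%), against 8.3% of all windows. No member held both. A match is a description of the letters and not of binding.

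Of the 68 members, 35 had reads in all 24 libraries and 26 in some of them. Trim31, Trim42, Trim43c, Trim52, Trim58, Trim61 and Trim75 had 0 reads in every library, which at 10.08 to 19.32 M counts per library allows up to 0.155 to 0.297 CPM (counts per 1 M counts) in 1 library (3 counts; counting error only). Another 9 members had between 1 and 10 reads in all libraries together (Trim10, Trim12a, Trim38, Trim40, Trim43a, Trim43b, Trim60, Trim71 and Trim80). After the filter on low counts, 38 members were tested between the adult strains and 45 between the neonatal groups, 46 in at least 1 fit and 22 in neither. The share of all counts that fell on members was 0.151% to 0.159% in adult MRL/MpJ libraries and 0.191% to 0.218% in adult MRL/lpr libraries. In the neonatal libraries it was 0.174% to 0.203% without stimulation, 0.267% to 0.293% with IFNa and 0.273% to 0.281% with the mixture, so neither stimulated group overlapped the unstimulated one. The share weighs members by their reads, and Trim30a had the most (154124 over all libraries). The median log2 fold change of the members tested (below) was 0.02 with IFNa and -0.09 with the mixture, so the share describes no shift of the whole family. The share also rests on library totals, and on that scale the median of all genes was 0.27 between the adult strains.

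Levels compared between genes were reads per kilobase and per 1 M counts (RPKM). In unstimulated neonatal cells, the highest were Trim30a at 57.5 ± 17.2 RPKM (SD, n = 3), Trim28 at 56.8 ± 6.41 and Trim35 at 53.2 ± 4.51, which did not differ beyond their spread. In adult MRL/lpr cells, Trim8, a regulator of cytokine signalling through SOCS1, stood at 71.6 ± 3.42 RPKM and Trim28 at 66.5 ± 1.63, and in adult MRL/MpJ cells they stood at 61.1 ± 3.36 and 61.5 ± 2.59. The third highest level was that of Trim41 in MRL/lpr (30.2 RPKM) and that of Trim35 in MRL/MpJ (35.6 ± 2.71 RPKM). Adult cells held less Trim30a than unstimulated neonatal cells, at 17.1 ± 1.73 RPKM in MRL/MpJ and 20.3 ± 2.01 in MRL/lpr. Age and culture differ together here and were not compared by a test.

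**Figure D1:**
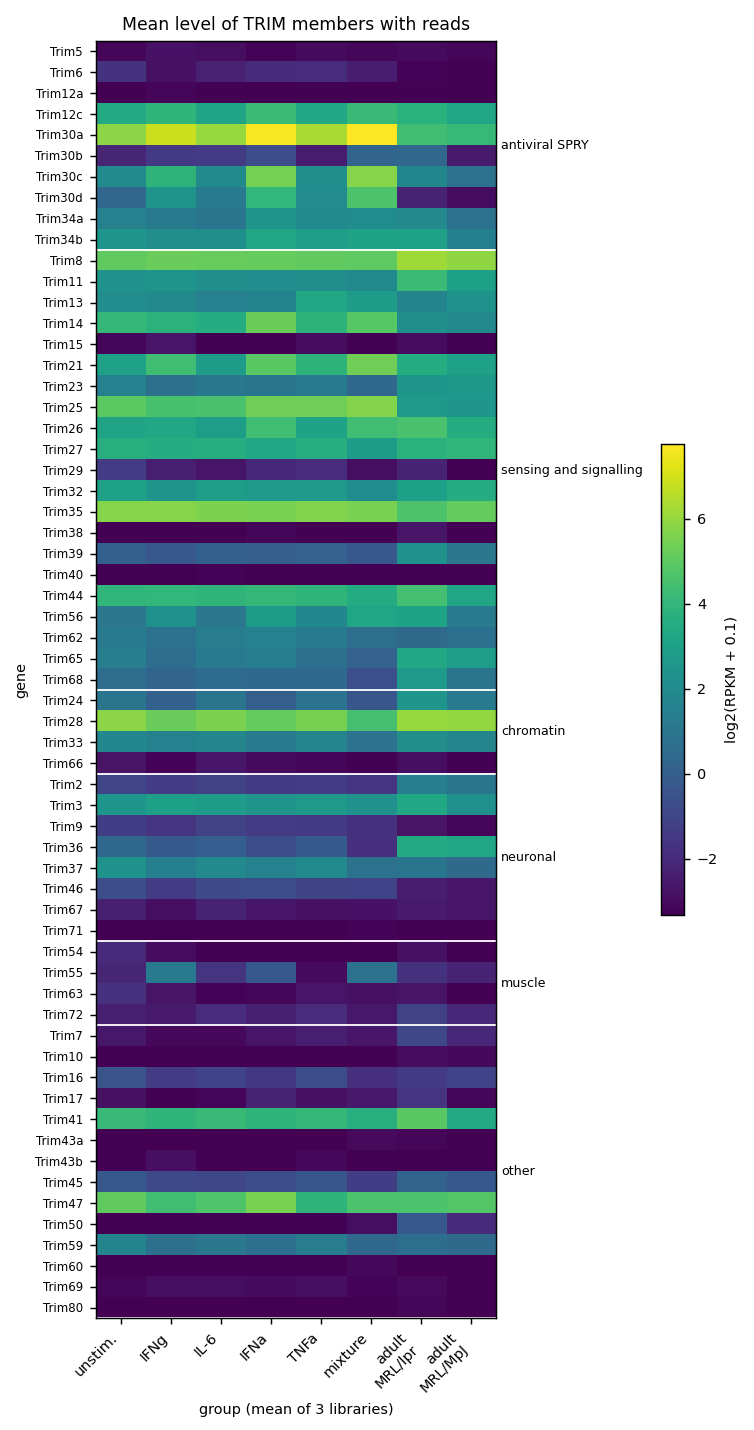
Mean level of the 61 TRIM members with reads, as log2(RPKM + 0.1), in the 8 groups (columns, means of 3 libraries), with genes (rows) ordered by role. Trim30a, Trim28 and Trim35 are among the brightest rows of the neonatal groups, Trim28 and Trim8 of the adult groups, and most muscle members stay near 0 RPKM.

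The labels call the cells microglia. Summed over a check list of 15 type I interferon response genes, replicate 3 of the unstimulated group had 3911 CPM (on library totals) against 1557 and 1627 in the other two, and replicate 3 was the highest for 15 of 15 list genes in the unstimulated, IFNg, IL-6 and TNFa groups. With IFNa it was the lowest in sum, at 19631 against 25730 and 29620 CPM. Astrocyte markers summed to 210 to 261 CPM in replicate 1 of every neonatal group and to 13.9 to 42.1 CPM in replicates 2 and 3. Some libraries thus stand apart. Of the 12 microglia markers, none was at 0, but Tmem119 was at 5.63 to 8.74 CPM in unstimulated cultures against 6748 to 7054 CPM in adult MRL/MpJ. Neonatal results are therefore given also without replicate 3, as a choice made after seeing the data.

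From here on, CPM are scaled by TMM, log2 fold changes are given ± SE from edgeR's quasi-likelihood test, "rose" and "fell" mean an adjusted p under 0.05 (Benjamini-Hochberg over all genes tested), and values in libraries are listed in the order of replicates 1, 2 and 3. The comparisons with unstimulated cells share those 3 control libraries, so their results are set side by side and not counted as separate support. In such bulk samples, fewer cells of a type and less RNA per cell cannot be told apart.

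With IFNa, 6 of the 8 antiviral SPRY genes tested rose, and with the mixture 6 of 8. Of 45 members tested, 11 rose and 2 fell (28.9%), against 14.5% of all 14626 genes (9.41% higher and 5.07% lower). The 8 antiviral SPRY genes had a median log2 fold change of 1.53 with IFNa and of 1.74 with the mixture, and 0 of them fell, while the IFNa median over all 45 members was 0.02 and that over all genes tested was -0.04. IFNg raised 4 members and lowered 3 (15.6%, against 12.9% of all genes, 8.57% higher and 4.32% lower), and among the antiviral SPRY genes it was Trim30a alone that passed the threshold. With the replicate number as a block, which fits the pairing of the neonatal libraries, IFNg gave 17 members, Trim12c, Trim30c and Trim30d among them, and 3468 of all genes instead of 1886. The mixture raised 13 and lowered 9 (48.9%, against 32% of all genes, 15.7% higher and 16.4% lower), the 6 antiviral SPRY genes raised by IFNa included. TNFa raised 2 and lowered 1 (6.67%, against 8.1% of all genes, 4.38% higher and 3.72% lower). IL-6 changed 0 members (against 0.978% of all genes), with 2 at an unadjusted p under 0.05 and 0 called by DESeq2.

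Marker lists moved with the cytokines too (sums of CPM on library totals). The 12 microglia markers summed to 7685 to 8418 CPM unstimulated, 6896 to 7747 with IL-6, 6783 to 7642 with TNFa, 5542 to 6760 with IFNg, 5516 to 5754 with IFNa and 4385 to 5289 with the mixture, with none at 0. The 5 monocyte markers summed to 34.3 to 48.5 CPM unstimulated, 22.4 to 42.97 with IL-6, 114 to 129 with IFNa, 151 to 168 with IFNg, 149 to 243 with TNFa and 100.2 to 179 with the mixture, with at most 2 at 0 in a library. Of these, Ccr2 lay at 0.41 to 2.99 CPM (TMM-scaled) in every neonatal library, and Itga4 rose with IFNa, IFNg, TNFa and the mixture. The 8 genes of the dissociation response summed to 758 to 873 CPM unstimulated, 820 to 915 with IL-6, 1000 to 1180 with IFNg, 1157 to 1342 with IFNa, 1134 to 1420 with TNFa and 1306 to 1655 with the mixture, with at most 1 at 0. In sum, the IFNg, IFNa, TNFa and mixture libraries thus lay above the unstimulated ones for the last 2 lists. They lay below them for the microglia markers. By gene the lists were mixed. Of the 12 microglia markers, 2 rose and 4 fell with IFNg, and 2 rose and 3 fell with IFNa. It was 1 and 3 with TNFa, and 3 and 4 with the mixture. Of the 5 monocyte markers, 1 rose with IFNg, 1 with TNFa, 2 with IFNa and 2 with the mixture. Their median log2 fold changes were -0.82, -0.07, 0.96 and 1.23. The part of these lists in the TRIM differences was not tested.

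Trim30a, an interferon-induced SPRY protein known to restrain Toll-like receptor signalling to NF-kappaB, was the most abundant of the group. It had 149, 194 and 310 CPM without stimulation, 441, 524 and 513 with IFNg, 809, 1017 and 715 with IFNa, and 1031, 1082 and 1105 with the mixture. It had, with IL-6, 200, 242 and 324 CPM and with TNFa 192, 243 and 516. The IFNg, IFNa and mixture libraries all lay above the unstimulated ones, and replicate 3 was high without stimulation, with IL-6 and with TNFa. It rose by 1.96 ± 0.33 with IFNa (edgeR adjusted p = 0.00061), by 1.18 ± 0.32 with IFNg (0.022) and by 2.30 ± 0.33 with the mixture (5.4e-05). The IFNg call was lost (largest adjusted p 0.107) when unstimulated replicate 1 or 2, or IFNg replicate 2 or 3, was left out.

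Its neighbours Trim30c and Trim30d, relatives of less settled function, started lower and changed more. Trim30c had 2.97, 4.103 and 11.19 CPM without stimulation, 23.3, 21.8 and 33.4 with IFNg, 72.3, 91.0 and 61.1 with IFNa, and 110, 98.6 and 125 with the mixture. The IL-6 libraries held 3.24, 2.35 and 13.2 CPM and with TNFa 4.09, 2.58 and 16.5. Replicate 3 held the highest value in the unstimulated, IL-6 and TNFa groups, and no IFNg, IFNa or mixture library overlapped the unstimulated ones. Trim30c rose by 3.61 ± 0.72 with IFNa (edgeR adjusted p = 0.0029), and by 4.18 ± 0.74 with the mixture, or 18.2-fold (0.00046). Without unstimulated replicate 3 these values were 4.40 and 4.97, and without replicate 3 in every group 4.502 and 4.89. With IFNg its log2 fold change was 2.09 ± 0.69 (0.062), and it was called with the replicate number as a block (2.23 ± 0.55) and without replicate 3 (2.66 ± 0.25).

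Trim30d had 0.32, 1.09 and 11.1 CPM (5, 18 and 197 reads) in the unstimulated libraries, 12.3, 13.8 and 34.97 with IFNg, 48.3, 66.4 and 72.1 with IFNa, and 92.6, 91.0 and 160 with the mixture. With IL-6 it had 2.23, 3.95 and 18.01 CPM and with TNFa 2.05, 4.44 and 39.6. Replicate 3 was the highest library in each of the 6 groups. Trim30d rose by 3.88 ± 1.19 with IFNa (edgeR adjusted p = 0.042) and by 4.76 ± 1.23 with the mixture (0.0079). Unstimulated replicate 3 decides the size: without that library the log2 fold changes were 6.44 with IFNa and 7.31 with the mixture, and without replicate 3 in every group 6.29 and 7.01. The IFNa call was lost when any of the other 5 libraries compared was left out and with no filter on low counts. With IFNg, where Trim30d was not called (2.27 ± 1.14), it was called without replicate 3 (4.17 ± 0.51) and with the block (2.69 ± 0.77); with TNFa it was not called (1.86 ± 1.13), and was called without replicate 3 (2.17 ± 0.53).

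Trim30b remained scarce. It had 1.03, 0.42 and 1.12 CPM unstimulated (16, 7 and 20 reads), 2.23, 2.20 and 1.75 with IFNg, 4.21, 5.46 and 1.98 with IFNa and 9.29, 11.8 and 9.17 with the mixture. With IL-6 it had 1.32, 3.103 and 1.55 CPM, and with TNFa 0.71, 0.58 and 0.43. IFNa and mixture libraries all lay above the unstimulated ones. Trim30b rose by 2.16 ± 0.47 with IFNa (edgeR adjusted p = 0.0041) and by 3.54 ± 0.49 with the mixture (3.3e-05), and the IFNa call missed the threshold when only these 2 groups were fitted (0.0505).

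Trim12c belongs with Trim5, whose primate counterpart binds retroviral capsids. It had 29.95, 33.1 and 46.4 CPM unstimulated, 57.7, 54.7 and 62.8 with IFNg, 76.2, 84.98 and 53.6 with IFNa and 81.1, 92.4 and 72.8 with the mixture. Its levels were 29.4, 29.7 and 32.6 CPM with IL-6 and 27.3, 31.3 and 49.9 with TNFa. The IFNg, IFNa and mixture libraries lay above every unstimulated one. Trim12c rose by 0.97 ± 0.22 with IFNa (edgeR adjusted p = 0.0058) and by 1.17 ± 0.22 with the mixture (0.00061). Its IFNg log2 fold change of 0.68 ± 0.22 was not called (0.053), but was with the block (0.69 ± 0.21) and without replicate 3 (0.82 ± 0.12). Of the 50-base stretches of its transcripts, 33% also occur in Trim5, Trim12a or Gm4992, so its counts depend on how such reads were assigned.

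Trim34b, an interferon-inducible SPRY gene, had 7.55, 10.6 and 10.3 CPM unstimulated, 15.0, 20.5 and 17.32 with IFNa and 19.4, 18.5 and 16.7 with the mixture. It had 6.99, 8.93 and 9.24 CPM with IFNg, 4.40, 9.87 and 8.92 with IL-6 and 11.1, 11.5 and 14.4 with TNFa. The IFNa and mixture libraries did not overlap the unstimulated ones, and the IFNg libraries did. Trim34b rose by 0.89 ± 0.25 with IFNa (edgeR adjusted p = 0.023) and by 0.94 ± 0.25 with the mixture (0.0085). The IFNa call was lost without unstimulated replicate 1, without IFNa replicate 2 and without replicate 3 in any group, and the mixture call under total-count scaling. Its copy Trim34a missed the threshold with IFNa (1.09 ± 0.38) and with the mixture (0.95 ± 0.38), and both were called with the block (1.16 ± 0.28 and 0.98 ± 0.29) and without replicate 3 (1.38 ± 0.34 and 1.12 ± 0.34). Trim34b shares 56.8% of its 50-base stretches with Trim34a, so the 2 genes' counts are uncertain. Trim6 was tested and not called, and Trim5 and Trim12a were too low to be tested.

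Among the ligases and adaptors of sensing and signalling, 4 of 18 tested rose with IFNa (Trim56, Trim26, Trim21 and Trim14) and 0 fell. Over all genes, 9.41% rose and 5.07% fell. Trim56, a ligase linked to STING and to antiviral defence, was the only member called in 5 of the 6 main comparisons. It had 16.27, 17.7 and 16.9 CPM unstimulated, 47.2, 39.3 and 47.3 with IFNg, 66.0, 79.6 and 37.0 with IFNa and 104, 86.2 and 114 with the mixture. With TNFa it had 28.9, 34.3 and 30.2 CPM and with IL-6 20.1, 14.29 and 17.1. All IFNg, IFNa, TNFa and mixture libraries were above the 3 unstimulated ones. It rose by 1.84 ± 0.22 with IFNa (edgeR adjusted p = 3.2e-05), 1.39 ± 0.22 with IFNg (0.00035), 0.88 ± 0.21 with TNFa (0.016) and 2.58 ± 0.22 with the mixture (3.4e-07). The TNFa call was lost when any unstimulated library or TNFa replicate 2 was left out (largest adjusted p 0.066).

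Trim21 had 19.9, 24.01 and 37.2 CPM without stimulation, 65.7, 77.7 and 93.3 with IFNg, 116, 144 and 81.8 with IFNa and 170, 199 and 174 with the mixture. In the IL-6 libraries it had 19.8, 18.6 and 33.4 CPM, and in the TNFa libraries 34.5, 38.9 and 80.1. IFNg, IFNa and mixture values did not overlap unstimulated values, and TNFa values did. Trim21 rose by 2.07 ± 0.34 with IFNa (edgeR adjusted p = 0.00051), by 1.54 ± 0.33 with IFNg (0.0050) and by 2.74 ± 0.34 with the mixture (1.6e-05), each kept in every alternative run. With TNFa it was not called (0.92), but was without replicate 3 (0.76 ± 0.15).

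Trim26, a ligase of the interferon induction pathway, separated IFNa from IFNg. It had 46.5, 56.7 and 63.1 CPM unstimulated, 66.6, 62.6 and 73.6 with IFNg, 143, 165 and 127 with IFNa and 163, 191 and 146 with the mixture. Trim26 had, with IL-6, 42.9, 42.5 and 56.2 CPM and with TNFa 44.2, 53.7 and 70.8. Every IFNa and mixture library lay above every other neonatal library. Trim26 rose by 1.39 ± 0.18 with IFNa (edgeR adjusted p = 8.1e-05) and 1.59 ± 0.18 with the mixture (6.5e-06), and was lower with IFNg than with IFNa by a log2 fold change of -1.10 ± 0.18 (0.0021).

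Trim14, an adaptor of the mitochondrial protein MAVS, had 42.7, 55.8 and 103 CPM unstimulated, 140, 193 and 186 with IFNa and 124, 185 and 153 with the mixture. It had 56.2, 49.7 and 80.8 CPM with IFNg, 30.6, 31.9 and 80.6 with IL-6 and 32.8, 53.1 and 97.9 with TNFa. Replicate 3 was the highest unstimulated library and still lay below all IFNa and mixture libraries. It rose by 1.36 ± 0.44 with IFNa (edgeR adjusted p = 0.049) and 1.20 ± 0.43 with the mixture (0.047). Both calls were lost when unstimulated replicate 1 or 2 was left out; with no filter both were lost too, as was the IFNa call without any 1 IFNa library, and the mixture call without mixture replicate 2 or 3 and under total-count scaling. Of its exonic bases, 31.3% overlap Nans on the opposite strand, and the strand setting of the counting is not given in the sources used here.

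Trim25, the ligase of RIG-I, rose with the mixture only, by 1.17 ± 0.41 (edgeR adjusted p = 0.041), from 125, 132 and 232 CPM unstimulated to 270, 338 and 492. Replicate 3 was the highest of its group in both. In the IFNa libraries Trim25 had 206, 224 and 301 CPM, which overlap the unstimulated values, and its log2 fold change of 0.58 ± 0.41 was not called. It was called there with the block (0.63 ± 0.12) and without replicate 3 (0.72 ± 0.17), and the block also called it with TNFa (0.45 ± 0.12). The mixture call was lost without unstimulated replicate 1 or 2, without mixture replicate 3, with no filter and under total-count scaling.

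**Figure D2:**
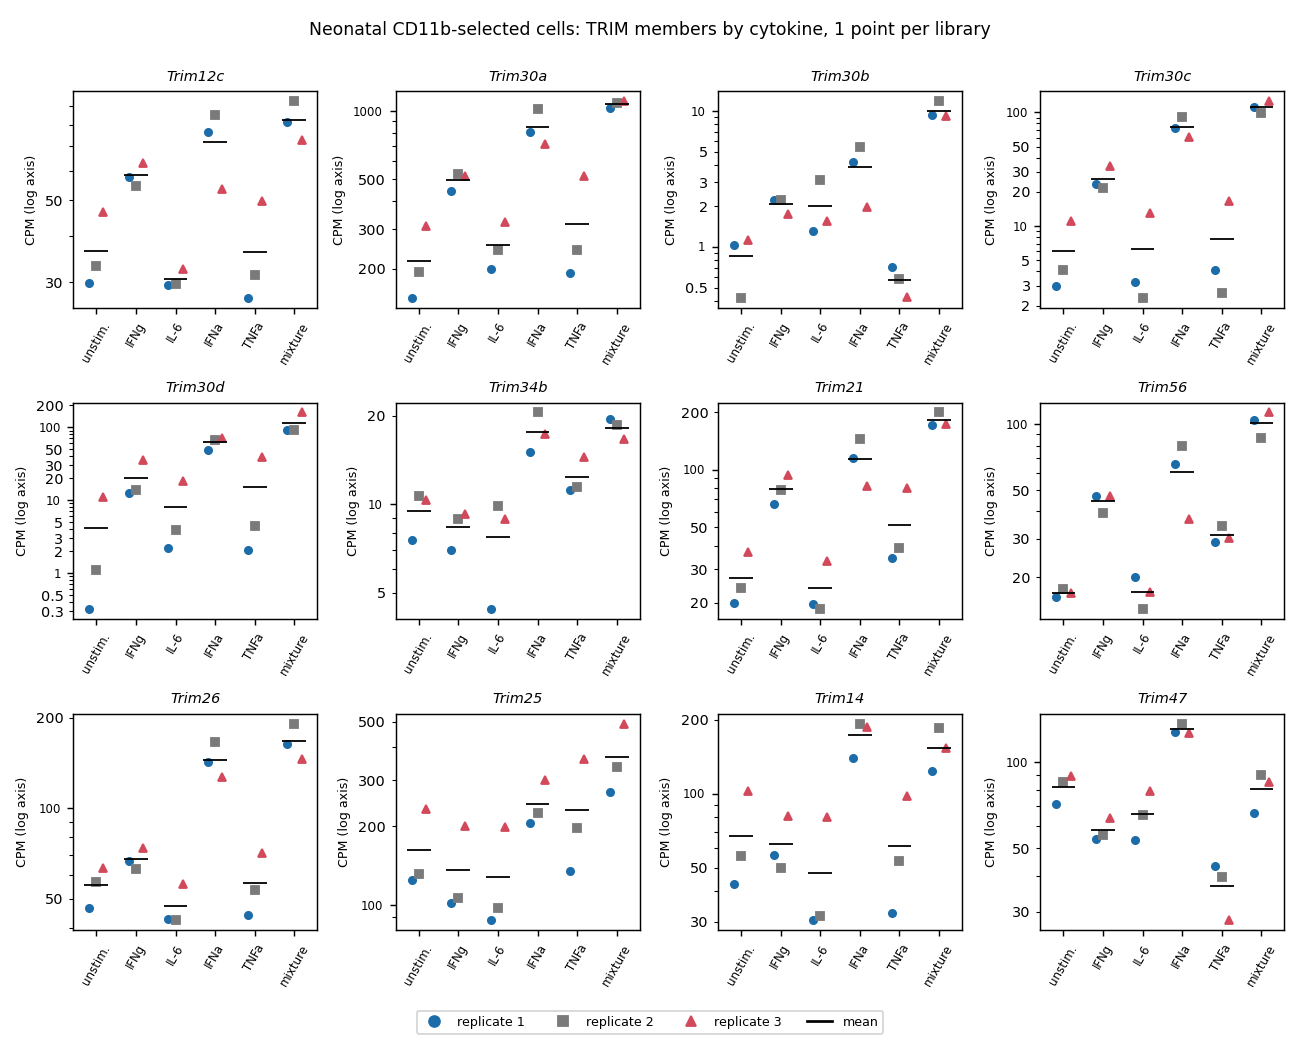
Level of 12 TRIM members in the 18 neonatal libraries, as TMM-scaled CPM on log axes, with 1 point per library (shape and colour give the replicate number) and a line at the group mean. Trim26 stands high with IFNa and the mixture only (127 to 191 CPM), Trim56 also with IFNg and TNFa, and in unstimulated cells replicate 3 of Trim30d (11.1 CPM) lies far above the other two.

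Trim13 and Trim47 gave the TNFa pattern. Trim13, a ligase anchored in the endoplasmic reticulum and linked to NF-kappaB, had 5.62, 6.70 and 6.58 CPM unstimulated, 12.03, 15.6 and 17.5 with TNFa and 15.4, 15.9 and 9.10 with the mixture. With IFNg it had 7.29, 5.29 and 5.49 CPM, with IL-6 4.40, 3.67 and 4.32, and with IFNa 6.16, 5.46 and 3.23. The TNFa and mixture libraries lay above all other neonatal libraries. It rose by 1.25 ± 0.27 with TNFa (edgeR adjusted p = 0.0058) and 1.09 ± 0.27 with the mixture (0.0045; 0.063 under total-count scaling). Trim13 shares 14.2% of its 50-base stretches with Gm9359.

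Trim47, a ligase of the family with a SPRY domain, had 71.5, 85.1 and 89.7 CPM unstimulated, 43.4, 39.6 and 28.1 with TNFa and 127, 136 and 126 with IFNa. It had 53.9, 55.4 and 63.9 CPM with IFNg, 53.5, 65.4 and 79.2 with IL-6 and 66.2, 90.0 and 85.4 with the mixture. The TNFa libraries were below and the IFNa libraries above all others of the neonatal set. It fell by 1.15 on the log2 scale with TNFa (-1.15 ± 0.18, edgeR adjusted p = 0.00041) and rose by 0.66 ± 0.17 with IFNa (0.016), while the mixture, which holds both cytokines, gave no call. The IFNa call was lost without unstimulated replicate 1 or IFNa replicate 2 and under total-count scaling. With IFNg it was not called, but the block called it lower (-0.50 ± 0.16). Part of its exons (8.23% of bases) overlaps Trim65 on the same strand.

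Of 4 chromatin corepressors tested, 2 fell with IFNa, 2 with IFNg and 3 with the mixture, and 0 rose. Over all genes, 5.07% fell with IFNa, 4.32% with IFNg and 16.4% with the mixture. With so few genes, nothing is read from these counts about the group. Trim28 (KAP1), which is recruited by KRAB zinc finger proteins, had 205, 233 and 201 CPM unstimulated, 167, 156 and 156 with IFNg, 139, 153 and 155 with IFNa and 114, 125 and 98.9 with the mixture. With IL-6 it had 183, 185 and 186 CPM and with TNFa 195, 192 and 145. Each stimulated library was below each unstimulated one. Trim28 fell with IFNg (-0.42 ± 0.12, edgeR adjusted p = 0.036), with IFNa (-0.52 ± 0.12, 0.0089) and with the mixture (-0.92 ± 0.13, 3.0e-05). The IFNg call was lost when any 1 of the 6 libraries compared was left out and with no filter, and the IFNa call without unstimulated replicate 2.

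Trim24 (TIF1alpha), a coregulator of nuclear receptors, had 15.4, 15.4 and 12.21 CPM unstimulated, 9.34, 7.97 and 7.50 with IFNg, 9.48, 4.53 and 9.76 with IFNa and 7.28, 6.71 and 6.74 with the mixture. With IL-6 it had 16.5, 15.33 and 12.6 CPM and with TNFa 12.8, 17.1 and 12.3. IFNg, IFNa and mixture libraries lay below all unstimulated, IL-6 and TNFa libraries. It fell with IFNg (-0.80 ± 0.24, edgeR adjusted p = 0.041), IFNa (-0.86 ± 0.24, 0.025) and the mixture (-1.05 ± 0.25, 0.0034). The mixture call held in every alternative; the IFNg call was lost when any library but unstimulated replicate 3 was left out, with no filter and without replicate 3 in any group, and the IFNa call without unstimulated replicate 1 or 2 or IFNa replicate 2 and when only the 2 groups were fitted.

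Trim33 (TIF1gamma), a partner of SMAD signalling, fell with the mixture (-0.57 ± 0.16, edgeR adjusted p = 0.012), from 29.4, 32.8 and 30.5 to 16.8, 19.1 and 26.4 CPM. Its groups did not overlap, and the call was lost without mixture replicate 1 or 2 and when only the 2 groups were fitted. With the block, Trim33 was also called lower with IFNa (-0.38 ± 0.13). Trim66 was too low to show a change, with 16, 4 and 0 reads in the unstimulated libraries.

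Further members fell. Trim23, a ligase with an ARF domain that modifies the NF-kappaB regulator NEMO, had 13.5, 14.299 and 14.6 CPM unstimulated, 9.34, 9.48 and 9.83 with IFNg and 9.29, 7.65 and 7.78 with the mixture. It had 12.25, 10.9 and 11.22 CPM with IL-6, 13.2, 8.52 and 10.9 with IFNa and 11.5, 12.7 and 13.1 with TNFa. The unstimulated libraries were the highest of all 18. It fell with IFNg (-0.56 ± 0.16, edgeR adjusted p = 0.031) and the mixture (-0.78 ± 0.16, 0.0016). Without replicate 3 in any group neither was called (-0.58 ± 0.26 and -0.70 ± 0.26), and the IFNg call was also lost when any 1 library was left out and with no filter.

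Trim32, a ligase with NHL repeats, had 20.6, 24.3 and 24.9 CPM unstimulated, 17.8, 16.4 and 17.8 with IFNg, 21.1, 17.8 and 23.995 with IL-6, 18.2, 20.4 and 20.9 with IFNa, 20.4, 18.04 and 16.6 with TNFa, and 17.8, 13.2 and 15.8 with the mixture. The IFNg and mixture libraries were below all unstimulated ones. With IFNg it was not called, but the block called it lower (-0.43 ± 0.15). It fell with the mixture (-0.58 ± 0.15, edgeR adjusted p = 0.0066), a call lost without mixture replicate 2 and without replicate 3 in any group. Trim27, a ligase of endosomal sorting, had 51.1, 71.3 and 66.4 CPM unstimulated and 41.5, 52.9 and 42.7 with the mixture, which overlap. In the other groups Trim27 had 63.7, 59.8 and 71.5 CPM with IFNg, 56.4, 68.1 and 55.5 with IL-6, 50.8, 49.8 and 62.3 with IFNa, and 60.2, 66.3 and 57.0 with TNFa. It fell with the mixture by a small amount (-0.46 ± 0.15, 0.025), and the call was lost without unstimulated replicate 2 or 3 or mixture replicate 1 or 3, without replicate 3 in any group and when only the 2 groups were fitted.

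Trim68 had 3.29, 6.58 and 3.99 CPM unstimulated and 1.71, 2.697 and 2.50 with the mixture. It had 3.55, 4.88 and 3.49 CPM with IFNg, 4.71, 4.14 and 4.26 with IL-6, 5.81, 4.26 and 3.52 with IFNa and 3.76, 4.64 and 4.23 with TNFa. The mixture libraries were the lowest of the 18. Trim68 fell with the mixture (-1.002 ± 0.32, edgeR adjusted p = 0.023), a call lost without unstimulated replicate 2 or mixture replicate 1 or 3, without replicate 3 in any group, with no filter and when only the 2 groups were fitted.

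Among the neuronal and microtubule-associated members, 2 of 7 fell with the mixture, against 16.4% of all genes. Trim36, a microtubule-associated ligase, had 6.00, 6.58 and 3.94 CPM unstimulated and 1.04, 1.09 and 1.04 with the mixture (93, 109 and 70 against 14, 15 and 15 reads). The groups were well apart, and it fell 5.17-fold (-2.37 ± 0.41, edgeR adjusted p = 0.00029), a call kept in every alternative. Trim37, a centrosomal ligase, had 31.9, 30.6 and 34.8 CPM unstimulated and 22.1, 12.03 and 9.45 with the mixture. It fell with the mixture (-1.16 ± 0.27, 0.0031), but was not called without replicate 3 (-0.86 ± 0.32), and with the block it was also called lower with IFNg (-0.75 ± 0.18) and IFNa (-0.72 ± 0.18).

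Trim3, a neuronal ligase with NHL repeats, rose with IFNg (0.60 ± 0.17, edgeR adjusted p = 0.024), from 19.2, 26.1 and 23.5 to 36.9, 36.1 and 31.5 CPM. It had 23.3, 29.6 and 33.8 CPM with IL-6, 24.5, 25.1 and 24.6 with IFNa, 29.2, 30.4 and 20.5 with TNFa and 24.2, 27.6 and 26.9 with the mixture. The IFNg libraries lay above the unstimulated ones, and the call was lost without unstimulated replicate 1 or 3, without IFNg replicate 1 or 2, with no filter and under total-count scaling. The muscle ligase gene Trim55 had 11, 1 and 1 reads unstimulated and 74, 8 and 146 with the mixture, which overlap; its mixture log2 fold change of 4.28 ± 1.44 (0.032) was called, but not without replicate 3 in any group (2.99 ± 1.57), without unstimulated replicate 2 or 3, without mixture replicate 1 or 3 (3.48 without the latter) or with no filter, and it reached 6.36 without unstimulated replicate 1. In the IFNg libraries Trim55 had 79, 68 and 133 reads, above all unstimulated ones. There it missed the threshold (4.43 ± 1.45) and was called with the block (4.66 ± 1.34). Trim55 passed the filter on low counts mainly through stimulated libraries, in which it was high. Its mixture call, counted among the 13 that rose, and its IFNg call with the block therefore carry no weight.

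**Figure D3:**
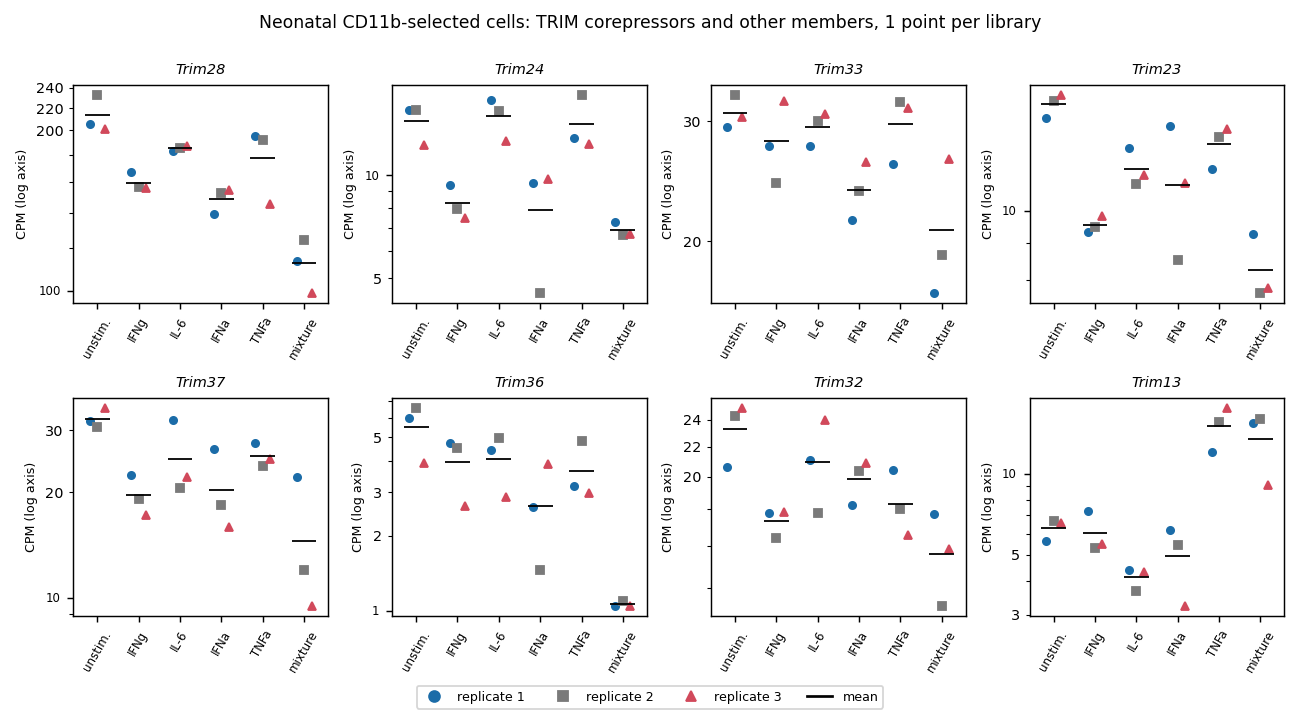
Level of 8 TRIM members in the 18 neonatal libraries, as TMM-scaled CPM on log axes, with 1 point per library and a line at the group mean. Trim28 and Trim24 are lower with IFNg, IFNa and the mixture, Trim36 is at 1.04 to 1.09 CPM with the mixture, and Trim13 is higher with TNFa and the mixture.

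The stimulated groups were also compared directly, with shares near those of all genes except for the mixture against IFNg. IFNg against IFNa gave 3 members, all lower (6.67%, against 5.17% of all genes, 2.81% higher and 2.36% lower), namely Trim26, Trim47 (-1.17 ± 0.18, edgeR adjusted p = 0.0012) and Trim34b (-1.07 ± 0.25, 0.020). With the block 9 members were called (against 2058 of all 14626 genes, 1106 higher and 952 lower). The 8 lower ones included Trim25 (-0.90 ± 0.12), Trim14 (-1.50 ± 0.28), Trim34a (-1.33 ± 0.29), Trim62 and Trim65, and the higher one was Trim3 (0.49 ± 0.15). Without replicate 3 it was 12, all lower (against 1036 of 15029 genes, 508 higher and 528 lower), with Trim30a (-0.91 ± 0.18), Trim30c (-1.85 ± 0.23), Trim30d (-2.12 ± 0.40), Trim21 (-0.85 ± 0.15) and Trim56 (-0.74 ± 0.19) among them, and Trim34b no longer called.

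The mixture against IFNg gave 9 members higher and 3 lower (26.7%, against 14% of all genes, 2089 of 14626, with 6.45% higher and 7.83% lower). The higher ones were Trim26 (1.30 ± 0.18, edgeR adjusted p = 0.00020), Trim56 (1.18 ± 0.21, 0.0014), Trim30b, Trim34b, Trim13, Trim21, Trim30a, Trim25 and Trim30c, and the lower ones Trim36 (-1.90 ± 0.41, 0.0048), Trim28 and Trim27. Without IFNg replicate 1 only 6 were called (against 1333 of 15250 genes). The block added Trim14 (1.34 ± 0.28), Trim30d (2.701 ± 0.67), Trim34a and Trim47 as higher and Trim33 (-0.45 ± 0.13) and Trim44 as lower, where it called 3844 of all genes. The mixture against IFNa gave 2 higher and 1 lower (6.67%, against 7.94% of all genes, 4.16% higher and 3.78% lower). These 3 were the members that TNFa alone had moved, each in the same direction. The share is near that of all genes and each of these calls was lost in some alternative run, so nothing is read from this. Trim13 was higher (1.44 ± 0.27, 0.0031), Trim47 lower (-0.69 ± 0.18, 0.023) and Trim56 higher (0.74 ± 0.21, 0.041). Without replicate 3 Trim56 was not called there (0.42 ± 0.19), and with the block 11 members were called (against 2689 of all genes, 1340 higher and 1349 lower). Those it added were Trim25 and Trim30b, higher, and Trim28, Trim36, Trim44, Trim62, Trim65 and Trim68, lower.

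Members tested and not called covered log2 fold changes of -1.103 to 2.79 with IFNa (32 members), -2.20 to 4.43 with IFNg (38), -2.17 to 1.19 with IL-6 (45), -1.83 to 1.86 with TNFa (42) and -3.76 to 0.95 with the mixture (23). Trim66 and Trim55, which had few reads in the unstimulated libraries, gave the upper bound with IFNa, both bounds with IFNg, and the lower bound with TNFa and with the mixture. The upper bound with IFNg was that of Trim55, whose IFNg libraries all lay above the unstimulated ones. A p that misses the threshold does not show that these members did not differ.

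The adult strains differed in a share of members near that of all genes. Of 38 members, 14 were higher and 5 lower in MRL/lpr than in MRL/MpJ (50%), against 45.7% of 13799 genes (24.1% higher and 21.6% lower), with a median log2 fold change of 0.21 against 0.01 over all genes. By role, 3 of 6 antiviral SPRY genes rose, 6 of 17 ligases and adaptors rose and 4 fell, and 1 of 3 corepressors rose. Under total-count scaling, which moves the median of all genes to 0.27, the split was 18 higher and 3 lower, against 4783 higher and 1439 lower over all genes.

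Trim56 was also the member of lowest adjusted p between the strains. It had 18.9, 27.2 and 24.7 CPM in MRL/MpJ and 83.3, 61.2 and 74.8 in MRL/lpr, with no overlap. It was higher by 1.63 ± 0.16 (edgeR adjusted p = 1.3e-05). Trim41, a ligase of the family, had 42.6, 42.6 and 41.5 CPM in MRL/MpJ and 105, 81.7 and 104 in MRL/lpr, and was higher by 1.20 ± 0.12 (1.6e-05). In the neonatal groups Trim41 lay between 34.5 and 71.6 CPM and was not called: it had 53.1, 57.1 and 61.9 CPM unstimulated, 48.0, 44.4 and 71.6 with IFNg, 50.8, 54.8 and 66.8 with IL-6, 41.5, 50.4 and 64.6 with IFNa, 52.4, 63.2 and 49.2 with TNFa, and 34.5, 55.8 and 67.9 with the mixture.

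Trim44, a member that lacks the RING domain, had 52.9, 55.0 and 60.7 CPM in MRL/MpJ and 117, 101 and 119 in MRL/lpr, with no overlap. It was higher by 1.00 ± 0.11 (edgeR adjusted p = 3.1e-05). In neonatal cells Trim44 had 74.8, 75.8 and 89.8 CPM unstimulated, 88.3, 73.6 and 118 with IFNg, 80.1, 60.9 and 93.6 with IL-6, 87.5, 88.0 and 107 with IFNa, 72.2, 78.3 and 90.5 with TNFa and 70.9, 70.7 and 84.3 with the mixture, and was not called against unstimulated cells.

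Trim30b gave the largest fold among the adult calls. It had 2, 9 and 14 reads (0.15, 0.76 and 0.96 CPM) in MRL/MpJ and 159, 125 and 157 reads (8.91, 7.02 and 8.22 CPM) in MRL/lpr. The groups lay far apart at low levels. Trim30b was 12.8-fold higher (3.68 ± 0.48, edgeR adjusted p = 9.3e-05). Its neighbours did not share this: Trim30a had 79.7, 67.3 and 84.0 CPM in MRL/MpJ and 70.7, 74.4 and 83.5 in MRL/lpr (-0.02 ± 0.12, 0.92), and Trim30c had 4.59, 0.93 and 4.24 and 4.93, 5.22 and 5.29 CPM (0.65 ± 0.47, 0.28). Trim30d, with 0, 1 and 4 reads in MRL/MpJ and 5, 14 and 3 in MRL/lpr, was not tested. Trim34b had 5.77, 5.06 and 5.47 CPM in MRL/MpJ and 14.8, 11.7 and 14.2 in MRL/lpr, and was higher by 1.32 ± 0.20 (0.00029). Trim34a was also higher (0.82 ± 0.27, 0.028), a call lost without MRL/lpr replicate 1 or 3 or MRL/MpJ replicate 2 or 3, and its counts are shared with Trim34b in part.

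Of the sensing and signalling members, Trim26 had 89.4, 82.5 and 88.3 CPM in MRL/MpJ and 153, 135 and 166 in MRL/lpr (0.80 ± 0.11, edgeR adjusted p = 0.00011). Trim68 had 8.66, 6.49 and 5.67 CPM and 21.1, 15.5 and 21.4 (1.48 ± 0.21, 0.00019). Both were higher in MRL/lpr with no overlap. Trim11 (1.08 ± 0.14, 7.4e-05) and Trim39 (1.102 ± 0.17, 0.00028) were higher as well. Lower in MRL/lpr were Trim35 (-0.77 ± 0.10, 0.00011), Trim32, Trim27 and Trim13. Trim32 had 44.9, 40.4 and 38.3 CPM in MRL/MpJ and 23.8, 22.0 and 20.5 in MRL/lpr (-0.90 ± 0.13, 0.00017). Trim13 had 9.10, 9.02 and 8.68 CPM and 3.87, 4.72 and 5.39 (-0.94 ± 0.24, 0.0082; 0.054 without MRL/lpr replicate 1). Trim27 had 101, 94.5 and 83.8 CPM and 67.2, 75.4 and 62.4 (-0.45 ± 0.11, 0.0077; 0.20 under total-count scaling). None of these groups overlapped.

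Trim21, Trim14 and Trim12c, which rose with IFNa, and Trim25, which rose with the mixture, were not called between the adult strains. Trim21 had 34.6, 33.9 and 29.2 CPM in MRL/MpJ and 35.3, 43.2 and 39.6 in MRL/lpr (0.28 ± 0.13, edgeR adjusted p = 0.11). Trim14 had 21.5, 11.7 and 18.8 CPM and 16.9, 16.0 and 19.6, and Trim12c had 41.1, 30.4 and 39.1 and 45.8, 43.6 and 47.4 (0.30 ± 0.13, 0.085; called with the block, 0.31 ± 0.12). Trim23, with 40.3, 31.9 and 38.9 CPM and 26.6, 28.4 and 32.0, missed the threshold (-0.35 ± 0.14, 0.053) and was called lower with the block (-0.35 ± 0.13). Of the members that rose with IFNa in neonatal cells, Trim56, Trim26, Trim30b and Trim34b were also higher in MRL/lpr and Trim47 was lower. Trim7, Trim11, Trim34a, Trim39, Trim41, Trim44 and Trim50 were higher in MRL/lpr and not called against unstimulated cells with any cytokine. With 45.7% of all genes called between the strains, nothing is read from such overlaps.

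Among corepressors, Trim24 had 18.1, 26.5 and 21.5 CPM in MRL/MpJ and 44.4, 36.2 and 47.9 in MRL/lpr, and was higher (0.96 ± 0.16, edgeR adjusted p = 0.00059), against its direction with IFNa, IFNg and the mixture. Trim28 had 288, 263 and 291 CPM and 261, 252 and 246, and was not called (-0.15 ± 0.09, 0.22). Trim3 had 21.8, 22.0 and 25.6 CPM in MRL/MpJ and 44.2, 31.5 and 48.5 in MRL/lpr, with no overlap (0.84 ± 0.17, 0.0016). Trim47 had 77.1, 90.8 and 78.8 CPM and 65.1, 62.5 and 58.3, and was lower (-0.41 ± 0.11, 0.0094), a call lost without MRL/lpr replicate 3 and under total-count scaling.

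Trim7, known as a partner of glycogenin, was higher in MRL/lpr (1.38 ± 0.49, edgeR adjusted p = 0.039), with 23, 11 and 10 reads in MRL/MpJ and 53, 46 and 59 in MRL/lpr. Trim50 was higher too (1.96 ± 0.68, 0.035), with 3, 3 and 6 against 19, 16 and 30 reads. Both rest on few reads: Trim7 lost its call in 5 of the 6 fits that left out 1 library (all but that without MRL/MpJ replicate 1), and Trim50 in 5 of 6 (all but that without MRL/MpJ replicate 3), with no filter and with the block. Trim50 passed the filter on low counts only through its MRL/lpr libraries, the group in which it was called higher. Its call, counted among the 14 higher, therefore carries no weight. The 19 adult members not called had log2 fold changes of -0.71 to 0.65.

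**Figure D4:**
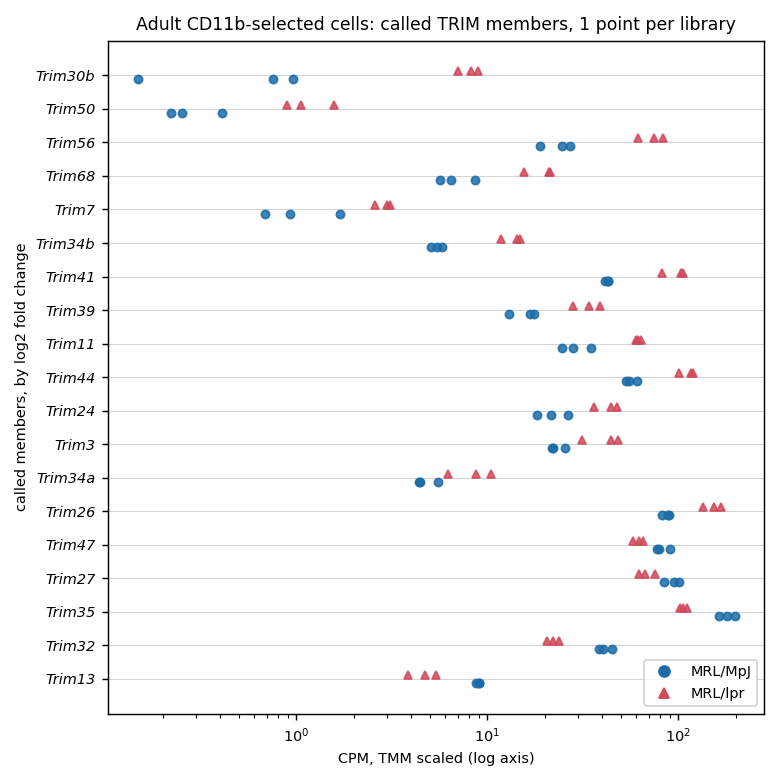
Level of the 19 TRIM members called between the adult strains, as TMM-scaled CPM on a log axis, with 1 point per library and genes ordered by log2 fold change. The MRL/lpr and MRL/MpJ points of each gene are apart, from Trim13 (lower in MRL/lpr) to Trim30b (12.8-fold higher).

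Cell markers moved with the strain as well. The 12 microglia markers summed to 65974 to 67830 CPM in MRL/MpJ and 44520 to 48203 in MRL/lpr, with none at 0 in any library. The 7 NK cell markers summed to 4.53 to 14.8 CPM in MRL/MpJ and 34.7 to 45.3 in MRL/lpr (4 and 1 to 2 of them at 0), the 9 T cell markers to 5.63 to 9.79 and 13.2 to 18.6 (2 to 3 and none at 0), the 6 B cell markers to 364 to 405 and 595 to 737 (up to 2 and none at 0), and the 7 border macrophage markers to 263 to 315 and 89.0 to 179 (none at 0). Of the 4 B cell markers tested, 2 were called higher and 1 lower in MRL/lpr. Genes of the dissociation response (8) summed to 808 to 897 CPM in MRL/MpJ and 2646 to 2946 in MRL/lpr. Their part in the TRIM differences was not tested. The 15 type I interferon response genes summed to 85.9 to 101 CPM in MRL/MpJ and 147 to 239 in MRL/lpr, far below the neonatal cultures. Of the 15, 8 were called higher, against 24.1% of all genes.

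Set beside the promoter stretches, 5 of the 10 members with a window that rose with IFNa held an ISRE core (Trim12c, Trim21, Trim26, Trim30a and Trim30d), as did 2 of 24 tested members with a window that did not rise (Trim2 and Trim34a). Trim30a and Trim30d held the same 30 bases, so these 5 are not all separate cases. Trim34a missed the threshold in the main fit, but was called higher with IFNa with the block (1.16 ± 0.28) and without replicate 3 (1.38 ± 0.34). The Trim2 match lies in a window inside that minus-strand gene. The other two holders, Trim5 and Trim12a, were among 19 members with a window that were too low to be tested. Trim56, Trim30b, Trim34b and Trim47 rose with IFNa with no such core in their windows, and Trim14 had no window. The only windows of Trim30b (chr7:104358597-104358896) and Trim47 (chr11:116110186-116110485) lie inside these minus-strand genes. The 5′ ends of these genes in GENCODE, at bases 104369884 and 116127210, were not searched. Trim30c held a GAS core only, and 0 of the 3 members with a window that rose with IFNg did. Between the adult strains, 2 of 11 members with a window that were higher in MRL/lpr held an ISRE core (Trim26 and Trim34a), against 4 of 17 that were not.

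**Figure D5:**
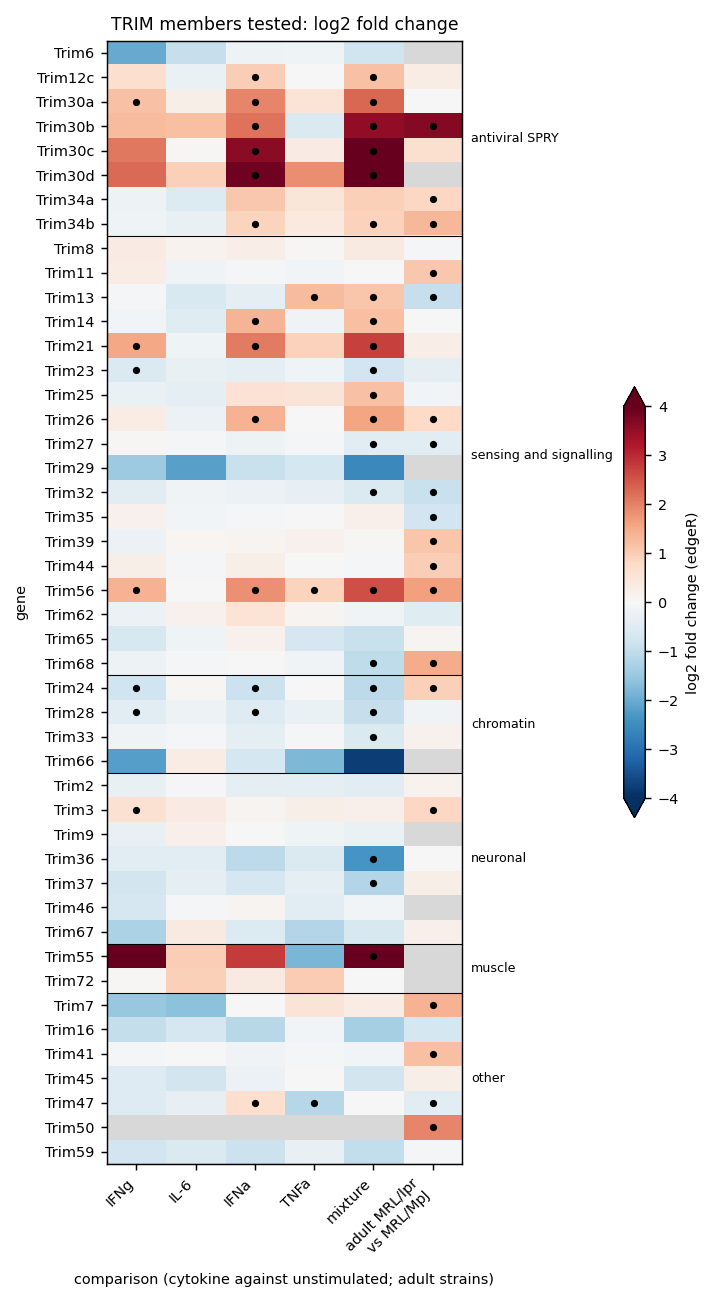
Log2 fold change (colour, limited to -4 to 4) of the 46 TRIM members tested in at least 1 fit, for the 5 neonatal comparisons with unstimulated cells and the adult strains, with genes ordered by role. A dot marks a called value and grey a member not tested, and the dots of the antiviral SPRY rows fall mainly in the IFNa and mixture columns (6 of 8 each).

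The partners of TRIM proteins were read from 5 lists. Over all genes tested, 14.5% were called with IFNa, 12.9% with IFNg, 0.978% with IL-6, 8.1% with TNFa and 32% with the mixture. Between the adult strains the share was 45.7%. These shares stand beside each list count below. Of 12 genes of the RIG-I and MAVS pathway, 7 rose with IFNa, 5 rose and 1 fell with IFNg, 3 rose with TNFa, 1 with IL-6, and 8 rose and 1 fell with the mixture. Ikbke, the kinase gene the series is about, rose by 1.53 ± 0.24 with IFNa, 2.53 ± 0.25 with IFNg, 1.08 ± 0.24 with IL-6, 4.70 ± 0.27 with TNFa and 5.23 ± 0.27 with the mixture. Ifih1, the sensor MDA5, rose by 3.60 ± 0.47 with IFNa, and Mavs fell with IFNg (-0.66 ± 0.20) and the mixture (-1.09 ± 0.21). Rnf135, a further ligase of RIG-I with a TRIM-like build, rose by 1.69 ± 0.27 with IFNa, 1.13 ± 0.27 with TNFa and 2.45 ± 0.28 with the mixture. Between the adult strains 6 of the 12 were higher and 1 lower, Irf3 (1.03 ± 0.10) and Ikbke (3.97 ± 0.63) among the higher.

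Of 7 DNA sensing genes, 6 rose with IFNa, 4 with IFNg, 1 each with IL-6 and TNFa and 7 with the mixture. Tmem173, which encodes STING, rose by 2.88 ± 0.33 with IFNg, 1.70 ± 0.32 with IL-6 and 2.84 ± 0.33 with the mixture, but was lower in adult MRL/lpr (-0.95 ± 0.11), where Trim56 was higher. Aim2 rose by 1.87 ± 0.22 with IFNa and was higher in adult MRL/lpr (1.36 ± 0.10), as were 4 more of the list. Of 17 ubiquitin and ISG15 conjugation genes, 9 rose with IFNa, 7 with IFNg, 1 with TNFa, 0 with IL-6 and 12 with the mixture, and none fell. Uba7, the activating enzyme of ISG15, rose by 2.23 ± 0.26 with IFNa and was higher in adult MRL/lpr by 2.22 ± 0.11, where 5 of 16 genes were higher and 6 lower. Ube2d3, a conjugating enzyme that works with many RING ligases, rose by 0.88 ± 0.12 with IFNg and 1.31 ± 0.12 with the mixture.

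Of 14 signal carriers, 9 rose with IFNa, 10 with IFNg, 2 with IL-6, 8 with TNFa and 13 with the mixture. Stat3 and Socs3 were the 2 that rose with IL-6 (1.59 ± 0.15 and 5.71 ± 0.59), so the IL-6 libraries did differ from unstimulated ones while 0 TRIM members were called. Nfkbia, the inhibitor of NF-kappaB, rose by 3.37 ± 0.25 with TNFa, and Jak2 by 1.56 ± 0.17 with IFNa. Between the adult strains 7 were higher and 2 lower, Tyk2 (1.25 ± 0.12) and Stat2 (1.22 ± 0.14) being higher. The 4 TRIM proteins with other gene names were called in part: Pml, the organiser of nuclear bodies, rose by 2.52 ± 0.43 with IFNa, 1.69 ± 0.42 with IFNg and 2.65 ± 0.43 with the mixture. Mid1, a microtubule-associated ligase, rose by 1.90 ± 0.40 with IFNa and 2.50 ± 0.41 with the mixture. Mefv, which encodes pyrin, rose by 4.99 ± 0.92 with TNFa, 3.24 ± 0.89 with IFNg and 5.60 ± 0.94 with the mixture, and was higher in adult MRL/lpr (3.27 ± 1.14), while Mid2 gave no call.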

How the data were processed

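Values are raw counts as deposited by the authors, 1 column for each of 24 libraries, with a gene length and no normalisation, per the file headers. The submitters' processing notes name cutadapt 2.1, STAR 2.7.1a and mm10. How reads were counted, and with which strand rule, is not given in the sources used here. The fits used edgeR 4.0.16 under R 4.3.3 (robust quasi-likelihood F test, TMM scaling, filterByExpr), separately for the 6 adult (13799 genes) and 18 neonatal libraries (14626 genes), for 9 comparisons, with Benjamini-Hochberg adjustment over all genes tested. The steps were also run on simulated counts without pairing or a raised replicate 3, so that run cannot show how the fits handle these.

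Members and lists were chosen with earlier results of these data known. Every member called in 1 of 6 main comparisons is named; those called in 2 or more, or among the 3 of lowest adjusted p, get every library's value, and each partner list up to 3 genes per comparison. All 45 same-numbered pairs of neonatal libraries correlated over 0.1 (0.184 to 0.687, median 0.407, deviations from group means). Of 90 differently numbered pairs, 15 did (-0.522 to 0.224, median -0.344). The numbers were therefore read as pairing the neonatal libraries, though the labels do not say what they stand for. The main fits, which gave the calls in the text, left this pairing out, and the block was run as an alternative. Of 3 same-numbered adult pairs, 2 correlated over 0.1. Alternatives were a replicate block, DESeq2 1.42.0, RLE or total-count scaling, a filter dropped or set to 1 CPM in 3 libraries, fits of 2 groups alone, each replicate left out and, added later, no replicate 3.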

Additional observations from a re-analysis of the deposited data

How the results depend on the processing

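None of the 82 called values changed sign in 1107 recomputed values, of which 945 stayed called and 162 did not. With the replicate block, which fits the pairing of neonatal libraries, members called went from 7 to 17 for IFNg, from 3 to 9 for IFNg against IFNa and from 3 to 11 for the mixture against IFNa; the members whose calls changed are named beside the results, and Trim59 and Trim65 were also called lower with IFNg and with the mixture, Trim59 lower with IFNa, and Trim8 higher with IFNg and the mixture. In these 3 comparisons DESeq2 gave 13, 6 and 9 members (2400, 1193 and 1750 of all genes). Fits of only the 2 groups gave 12, 7 and 1 (1957, 817 and 423 of all genes). With no filter IFNg gave 3 (1528 of all genes). Total-count scaling gave 5 for IFNg against IFNa (952 of all genes) and 12 for the mixture against IFNa (2387). It moved the median log2 fold change of all genes by over 0.1 in 5 neonatal comparisons, to -0.47 for the mixture, -0.21 for IFNg and -0.22 for IFNa, -0.24 for the mixture against IFNg and -0.26 against IFNa. Splits (members higher and lower, with those of all genes in brackets) became 9 and 15 for the mixture (1547 and 4993), 3 and 5 for IFNg (996 and 1211), 10 and 4 for IFNa (1190 and 1560), 9 and 7 for the mixture against IFNg (735 and 2769), and 1 and 11 against IFNa (448 and 1939). Without replicate 3 in any neonatal group, IFNg against IFNa gave 12 (1036 of all genes) and TNFa 5 (1006). The mixture then gave 13 higher and 5 lower (2114 and 1829 of all genes). Leaving out 1 replicate gave 8 to 13 members for IFNa, 2 to 6 for IFNg, 2 to 4 for IFNg against IFNa, 1 to 3 for the mixture against IFNa, 6 to 12 against IFNg, 2 to 3 for TNFa, 17 to 21 for the mixture and 15 to 20 for the adult strains. Over all genes the same fits called 1415 to 1979 for IFNa, 1240 to 1522 for IFNg and 325 to 597 for IFNg against IFNa. They called 681 to 1115 for the mixture against IFNa, 1333 to 1887 against IFNg and 795 to 1004 for TNFa. For the mixture it was 3812 to 4406, and for the adult strains 4733 to 6519. The cause of these shifts was not tested. Counts of all genes called moved over 1.5 times with the block for IFNg (1886 to 3468), IL-6 (143 to 714), IFNa (2118 to 3712), TNFa (1184 to 2542), IFNg against IFNa (756 to 2058) and the mixture against IFNg (2089 to 3844) or IFNa (1161 to 2689).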
